A study of Mus musculus with 6 samples.

Results

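NF-kB is a family of transcription factors that work as dimers and switch on genes of survival, inflammation and lymphocyte activation. The genes described here are its subunits and the inhibitors that it induces to switch itself off. The cells were of the mouse multiple myeloma line DP42; myeloma is a cancer of plasma cells. The list held 10 genes. A gene was counted as measured when a probe set of the array carried its symbol and no other in the platform annotation. By that rule 9 of the 10 were measured, of 22180 genes in all, each by 1 probe set, and Nfkb1 was not analysed here. Which of the 10 counted as measured did not depend on any expression value, but the list was chosen with earlier results of these data known.

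DP42 cells were kept for 24 h by themselves, beside B cells of the mouse, or beside neutrophils of the mouse, and each of the 3 groups was represented by 2 arrays. Per the labels' protocols, the co-cultured cells were flow sorted before RNA was extracted. The design text treats the B-cell co-culture as a control. The labels name the neutrophil partner "neutrophils (IMC)", with "Myeloid cells" in the descriptions. They give no genotype or treatment beyond the culture partner, no strain or age for the animals that gave the B cells and neutrophils, and do not say whether a group's 2 arrays stem from separate cultures. The p-values therefore only set differences between groups against the spread between arrays within groups, which may be technical.

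In resting cells NF-kB dimers are held in the cytoplasm by inhibitors of the IkB family. In the canonical route, receptors such as those for TNF or CD40 activate a kinase complex that marks the inhibitors for degradation, and dimers of Rela or Rel enter the nucleus. In the alternative route the kinase encoded by Map3k14 brings about the processing of the Nfkb2 precursor, which pairs with Relb. Both routes are known to be active in myeloma, in part through mutation of their regulators and in part through signals from cells of the marrow. Active NF-kB raises the transcripts of its own inhibitors, Nfkbia, Nfkbie and Tnfaip3 among them, and of the subunits Nfkb2, Rel and Relb.

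Sites for NF-kB in their own promoters are known for several of these genes, which is why promoter sequences are shown. RefSeq windows of GRCm38.p6, from 250 bases before to 50 after a transcription start, were found for 8 of the 10 genes, in 11 windows. They were searched on both strands for the kB consensus, a motif of 10 bases with 3 G at its start, 2 pyrimidines followed by 2 C at its end, and, between them, a purine, any base, and A or T. Matches on the 2 strands, and matches shifted by 1 base, could overlap. A match was found for 7 of the 8 genes, in 9 of the 11 windows, whereas 4.51% of all 32851 windows and 5.14% of all 27025 genes with a window held one. The gene without a match was Rela. A match describes letters in a window and not a bound site. The match nearest to the start of each gene is printed 5′ to 3′ on the gene's strand with up to 20 bases on either side, matched bases in capitals. For Nfkb2 the window furthest upstream is shown.
Nfkb2, chr19:46304678-46304755, plus strand: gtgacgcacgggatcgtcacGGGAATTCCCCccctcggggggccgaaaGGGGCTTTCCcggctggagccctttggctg
Rel, chr11:23771031-23771081, minus strand: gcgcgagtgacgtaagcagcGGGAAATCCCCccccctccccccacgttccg
Nfkbia, chr12:55492647-55492696, minus strand: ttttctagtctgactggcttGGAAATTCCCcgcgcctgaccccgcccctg
Nfkbie, chr17:45555574-45555623, plus strand: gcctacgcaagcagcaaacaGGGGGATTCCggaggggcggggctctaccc
Tnfaip3, chr10:19015393-19015442, minus strand: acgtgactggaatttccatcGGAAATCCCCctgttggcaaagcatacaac
Tnip1, chr11:54962967-54963018, minus strand: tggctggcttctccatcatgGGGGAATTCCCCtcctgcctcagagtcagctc
Bcl3, chr7:19822724-19822773, minus strand: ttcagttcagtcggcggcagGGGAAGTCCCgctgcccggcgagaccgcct
The capitals of Nfkb2, Rel and Tnip1 hold a match that fits the consensus on both strands and overlaps others. In Nfkbia the match began 29 bases before the start, in Rel 92 and in Nfkbie 106. In Tnfaip3 a second match began 125 bases before the start.

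The values are log2 expression after RMA, the authors' background subtraction, normalisation between arrays and summary of probes, so 1 unit is a 2-fold difference. Levels are compared between groups for a given gene and, as a guide to brightness, with the quartiles and median of an array. All 9 genes had a mean above the median of all genes, the array medians being 7.27 to 7.38, and Tnfaip3 lay closest to it.

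The NF-kB genes differed by less than 2-fold between the 3 groups. Of the 9 genes, 0 passed limma's test at a Benjamini-Hochberg adjusted p under 0.05 in any of the 3 comparisons of culture groups. Of all genes, 0.0496% passed between neutrophils and B cells, 1.49% between neutrophils and culture alone and 0% between B cells and culture alone. Among the 9 the largest difference was 0.26 on the log2 scale. The 95% intervals, which are not adjusted for the number of genes, all lay inside a 2-fold difference in either direction. The widest reached 1.51-fold, for Tnip1 with neutrophils relative to B cells. The smallest lower bound was 0.739-fold, also for Tnip1, with B cells relative to culture alone. With neutrophils, the intervals of Nfkbie relative to B cells and of Rela and Rel relative to culture alone lay above no difference.

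**Figure D1:**
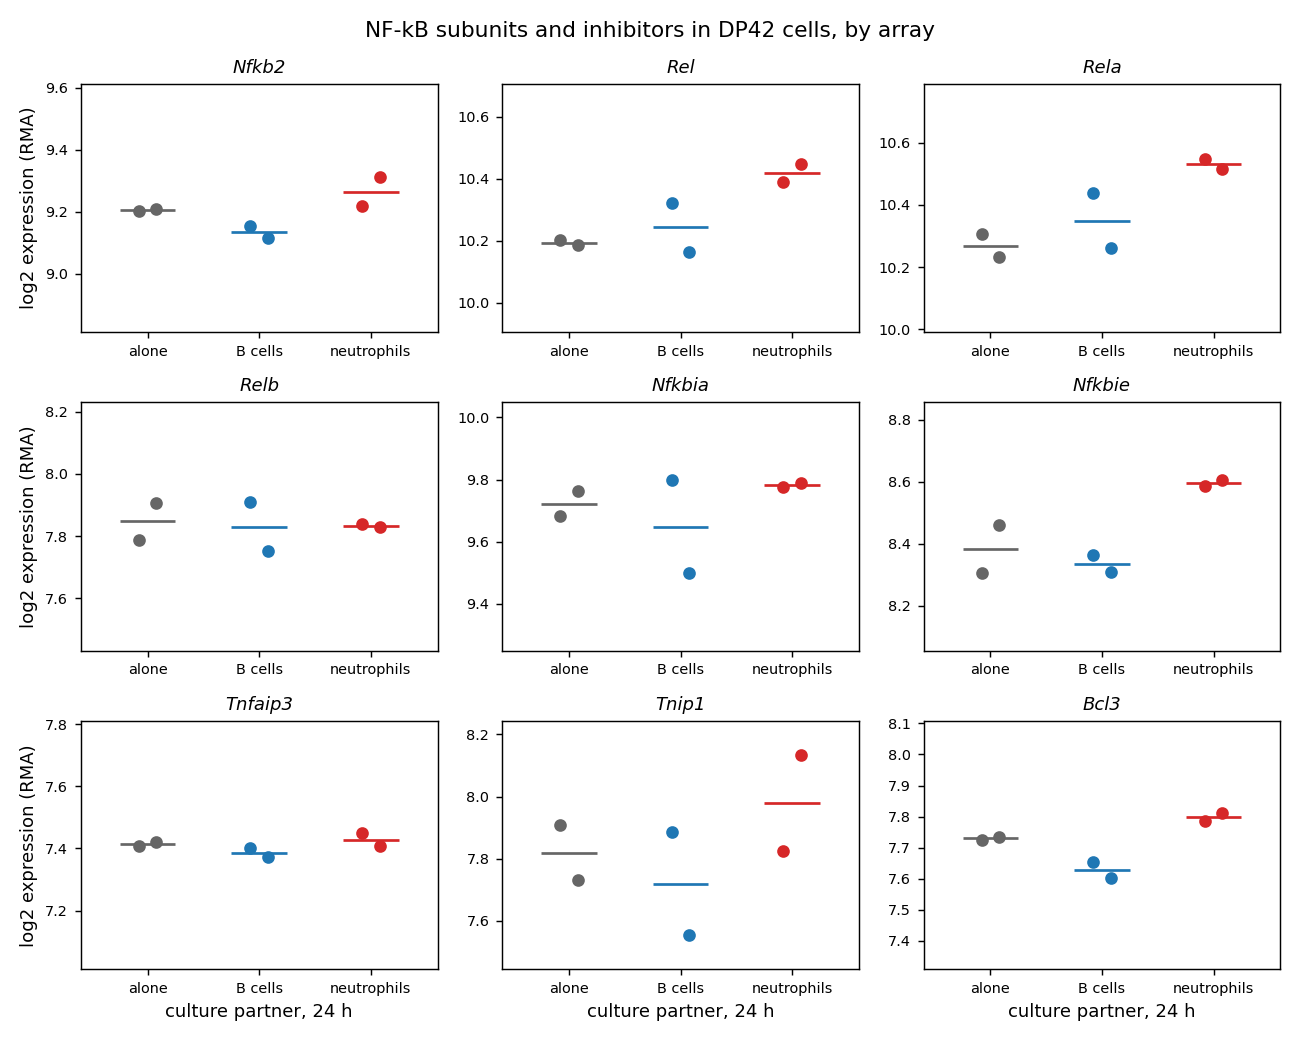
Level of each of the 9 measured genes (y axis, log2 expression after RMA; each panel spans 0.8 log2 units) in the 2 arrays of each culture group (x axis). Points are arrays, with replicate 1 to the left of replicate 2, and bars are group means. Both neutrophil arrays lie above the other 4 arrays for Nfkb2, Rel, Rela, Nfkbie and Bcl3, by less than 0.3 log2 units between group means. Separation of this kind was common. Of the 11090 genes that reach the median brightness, both neutrophil arrays exceeded both B-cell arrays for 5776. They exceeded both arrays cultured alone for 6661. How many exceeded all 4 at once was not counted, so the pattern cannot be read as particular to the NF-kB genes.

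Rela encodes the main activating subunit of the canonical route. It stood at 10.31 and 10.23 in cells cultured alone, 10.44 and 10.26 beside B cells, and 10.55 and 10.51 beside neutrophils. The neutrophil arrays were the highest, while the arrays of the other groups overlapped. Relative to culture alone the difference was 0.26 ± 0.10 (SE), or 1.20-fold with a 95% interval of 1.02 to 1.41 (unadjusted p = 0.0289, adjusted p = 0.232). Relative to B cells it was 0.18 ± 0.10 (adjusted p = 0.311).

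Rel encodes c-Rel, the activating subunit used in stimulated lymphocytes. It stood at 10.20 and 10.18 alone, 10.32 and 10.16 beside B cells, and 10.39 and 10.45 beside neutrophils. As for Rela the neutrophil arrays were the highest, and B-cell replicate 2 was the lowest. The difference between neutrophils and culture alone was 0.22 ± 0.10, or 1.17-fold with an interval of 1.00 to 1.36 (unadjusted p = 0.0487, adjusted p = 0.280), and that between neutrophils and B cells was 0.18 ± 0.10 (adjusted p = 0.316).

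Nfkb2 encodes the precursor of the alternative route. It stood at 9.20 and 9.21 alone, 9.15 and 9.12 beside B cells, and 9.22 and 9.31 beside neutrophils. The 3 groups did not overlap, but neutrophil replicate 1 lay within 0.01 of the nearest array cultured alone. The difference was 0.13 ± 0.09 from B cells and 0.06 ± 0.09 from culture alone, with adjusted p of 0.397 and 0.735. With quantile normalisation of the deposited values these became -0.04 and -0.08, so the direction for Nfkb2 depends on the scaling.

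Relb, its partner, stood at 7.79 and 7.91 alone, 7.91 and 7.75 beside B cells, and 7.84 and 7.83 beside neutrophils. All 3 groups overlapped, and the neutrophil arrays lay inside the range of the other 4. The neutrophil group differed by 0.00 ± 0.10 from B cells and by -0.01 ± 0.10 from culture alone (adjusted p = 0.985 and 0.954). The interval for neutrophils over culture alone ran from 0.845- to 1.16-fold.

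Nfkbia encodes IkB alpha, the inhibitor that NF-kB induces fastest and strongest in most cells. It stood at 9.68 and 9.76 alone, 9.80 and 9.50 beside B cells, and 9.77 and 9.79 beside neutrophils. The neutrophil arrays lay above those cultured alone by as little as 0.01, and B-cell replicate 1 was the highest of all. Relative to culture alone the difference was 0.06 ± 0.12, with an interval of 0.868- to 1.25-fold (adjusted p = 0.785). It turned to -0.07 with quantile normalisation.

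Nfkbie encodes IkB epsilon, a later inhibitor that holds Rela and Rel dimers. It stood at 8.31 and 8.46 alone, 8.36 and 8.31 beside B cells, and 8.59 and 8.61 beside neutrophils. The neutrophil arrays agreed closely and lay above the other 4. The difference from B cells was 0.26 ± 0.10, or 1.20-fold with an interval of 1.03 to 1.40 (unadjusted p = 0.0265, adjusted p = 0.214). From culture alone it was 0.21 ± 0.10 (unadjusted p = 0.0572, adjusted p = 0.298).

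Tnfaip3 encodes a ubiquitin-editing enzyme that shuts off signalling above the kinase complex and is a tumour suppressor in B-cell lymphoma. It stood at 7.41 and 7.42 alone, 7.40 and 7.37 beside B cells, and 7.45 and 7.41 beside neutrophils. Over the 6 arrays its range was 0.08, the smallest of the 9 genes, and the neutrophil arrays overlapped those cultured alone. The difference from culture alone was 0.01 ± 0.09, with an interval of 0.876- to 1.16-fold (adjusted p = 0.949).

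Tnip1 encodes a binding partner of the Tnfaip3 protein that helps it restrain signalling. It stood at 7.91 and 7.73 alone, 7.89 and 7.55 beside B cells, and 7.82 and 8.13 beside neutrophils. It had the widest spread of the 9 genes, 0.58 over the 6 arrays, and its groups overlapped in every comparison. The difference of 0.26 ± 0.15 from B cells was as large as that of Nfkbie, with a wider error (adjusted p = 0.323).

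Bcl3 encodes a nuclear member of the IkB family that acts with NF-kB on DNA. It stood at 7.73 and 7.73 alone, 7.65 and 7.60 beside B cells, and 7.79 and 7.81 beside neutrophils. Its arrays fell in 3 separate levels, with B cells the lowest. The differences were 0.17 ± 0.09 between neutrophils and B cells (adjusted p = 0.295), 0.07 ± 0.09 between neutrophils and culture alone (adjusted p = 0.674) and -0.10 ± 0.09 between B cells and culture alone (adjusted p = 0.9999).

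**Figure D2:**
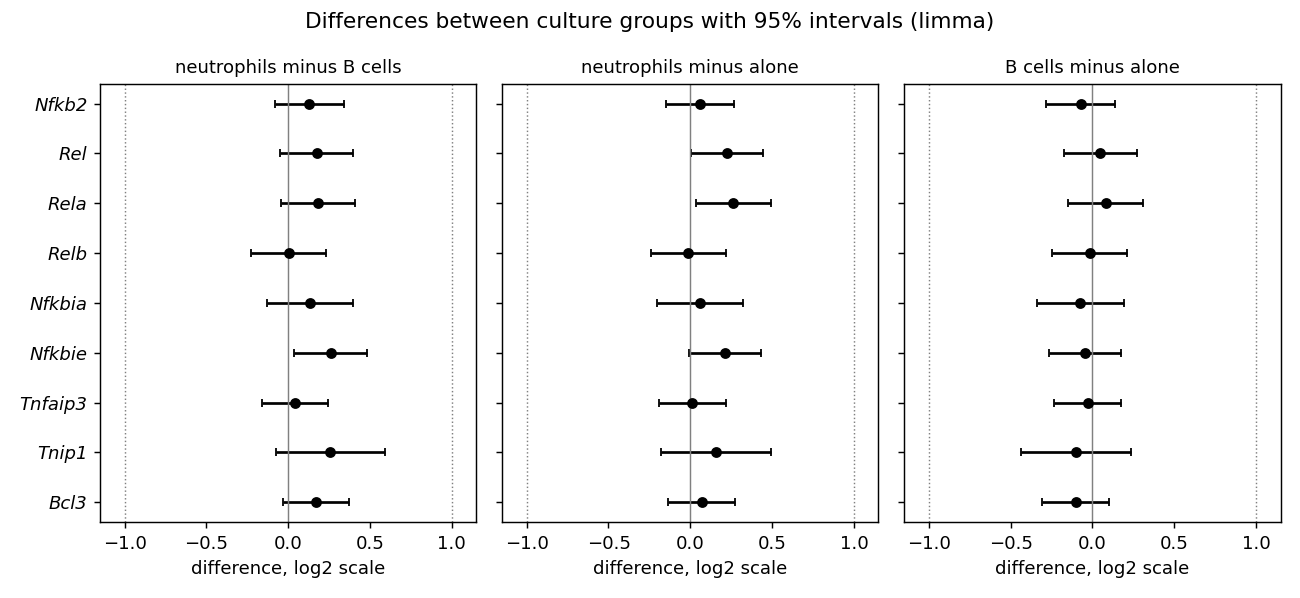
Difference between culture groups for each of the 9 genes (x axis, log2 scale, first group minus second) in the 3 comparisons. Points are limma estimates from 2 arrays a group, bars are 95% intervals, and dotted lines mark a 2-fold difference. The intervals of Nfkbie relative to B cells and of Rela and Rel relative to culture alone lie above 0, and none reaches 2-fold.

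Between neutrophils and B cells, 0 of the 9 genes passed, where 0.0496% of all genes did, and 1, Nfkbie, was higher at an unadjusted p under 0.05, where 8.1% of all genes were. For 6 genes both neutrophil arrays lay above both B-cell arrays, which held for 30% of all genes and for 5776 of the 11090 genes at or above the median brightness. The median difference was 0.17 over the 9, against 0.13 over those brighter genes and 0.01 over all genes. The B-cell arrays differed from each other: replicate 1 was the higher for all 9 genes, by 0.03 to 0.33, and for 76.6% of the brighter genes. Without B-cell replicate 1 the 9 differences ran from 0.06 to 0.42. Then 0 of the 9 passed, with a lowest adjusted p of 0.0575, for Nfkbia, and 5 were at an unadjusted p under 0.05, where 24.6% and 44.7% of all genes were, in either direction. Without B-cell replicate 2, Nfkbia turned to -0.02 and Relb to -0.07.

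Between neutrophils and culture alone, 0 of the 9 passed, where 1.49% of all genes did, and 2, Rela and Rel, were higher at an unadjusted p under 0.05, where 5.97% of all genes were. Both neutrophil arrays lay above both arrays cultured alone for 6 of the 9, which held for 35.6% of all genes and for 6661 of the 11090 brighter ones. The median difference of 0.07 lay below that of the brighter genes, at 0.11. Between B cells and culture alone, 0 of the 9 passed in limma and 0 were at an unadjusted p under 0.05, where 0% and 3.92% of all genes were. For 3 genes, Nfkb2, Tnfaip3 and Bcl3, both B-cell arrays were the lower, which held for 13.5% of all genes. The comparisons share arrays, so they are not independent of each other.

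Other measures moved with the groups. The mean of 1394 olfactory and vomeronasal receptor genes, which lie among the dimmest on the arrays, was 5.56 and 5.51 alone, 5.27 and 5.59 beside B cells, and 5.13 and 5.05 beside neutrophils. The mean of the 9 NF-kB genes was 8.72 and 8.74, 8.77 and 8.62, and 8.82 and 8.87. When the receptor mean entered the fit as a covariate, the difference between neutrophils and culture alone became 0.06 for Rela, 0.00 for Rel and 0.10 for Nfkbie. The receptor mean was lowest in both neutrophil arrays, so with 6 arrays that fit can hardly tell it apart from the neutrophil group. The mean of 29 measured neutrophil genes of 30 listed was 6.55 and 6.60 alone, 6.56 and 6.72 beside B cells, and 6.78 and 6.80 beside neutrophils. Of those 29 neutrophil genes, 5 rose between neutrophils and culture alone, where 29 of all 22180 genes rose. Between neutrophils and B cells 1 rose, Ngp, where 7 of all genes did. Differences of 8 and 12 of the neutrophil genes were negative in these comparisons, and 0 of those passed. The mean of 17 mature B cell genes ran from 9.47 to 9.53 over all arrays. It was already 9.50 and 9.47 alone, so it is a weak gauge of RNA from partner B cells. The mean of 10 plasma cell genes ran from 8.75 to 8.84 and that of 13 monocyte and macrophage genes from 7.16 to 7.30. Of the last list, 1 gene passed, Ly6c2, at 1.51 ± 0.10 relative to B cells (adjusted p = 0.00346) and 1.40 ± 0.10 relative to culture alone (adjusted p = 0.00226). Among the plasma cell genes Irf4, at 10.68 to 10.98, and Xbp1, at 9.90 to 10.18, lay above the upper quartile of every array. Prdm1, at 6.70 to 6.97, and Tnfrsf17, at 5.74 to 6.24, lay below the median of every array. The part of other cells' RNA in the values of the NF-kB genes was not tested, and in bulk RNA fewer cells of a type cannot be told apart from less RNA per cell.

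The wider pathway was read from a list of receptors, adaptors and kinases and a list of further inhibitors. Of the 33 measured receptors, adaptors and kinases, 0 passed in any comparison. With neutrophils relative to B cells their median was 0.17, against 0.13 over the 11090 brighter genes. At an unadjusted p under 0.05, 7 were higher and 2 lower. At that level were 1595 and 436 of the brighter genes, and 1797 and 2652 of all 22180. Relative to culture alone their median was 0.13, close to the 0.11 of the brighter genes. There 4 were higher and 1 lower, beside 1064 and 300 of the brighter genes and 1324 and 2599 of all. The largest of these differences between neutrophils and B cells was 0.41 ± 0.13 for Bcl10, an adaptor that links antigen receptors to the kinase complex (adjusted p = 0.180). Bcl10 stood at 9.45 and 9.31 alone, 9.27 and 8.92 beside B cells, and 9.55 and 9.46 beside neutrophils, so B-cell replicate 2 was the low array. Rnf31, the catalytic subunit of the linear ubiquitin ligase, differed by 0.37 ± 0.10 (adjusted p = 0.158). Map3k14, the kinase of the alternative route, stood at 7.46 and 7.50 alone, 7.54 and 7.40 beside B cells, and 7.73 and 7.84 beside neutrophils. Its neutrophil arrays were the highest, and the difference from culture alone was 0.30 ± 0.10 (adjusted p = 0.180). In the other direction were the adaptor Traf1, at -0.26 ± 0.11 relative to B cells (adjusted p = 0.237), and the lymphotoxin receptor Ltbr, at -0.23 ± 0.09 (adjusted p = 0.230).

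The 18 further inhibitors had a median of 0.17 with neutrophils relative to B cells, against 0.13 over the 11090 brighter genes. Relative to culture alone it was 0.20, against 0.11. At an unadjusted p under 0.05, 5 were higher and 1 lower relative to B cells, beside 1595 and 436 of the brighter genes. There were 3 and 1 relative to culture alone, beside 1064 and 300. Of all 22180 genes, 7 rose relative to B cells and 29 relative to culture alone. Of the 18 inhibitors, 1 rose in both comparisons. Usp18, which removes the ubiquitin-like protein ISG15 and restrains type I interferon signalling, stood at 7.33 and 7.47 alone, 7.58 and 7.45 beside B cells, and 8.42 and 8.45 beside neutrophils. The neutrophil arrays were well clear of the others. It rose 1.89-fold relative to B cells (0.92 ± 0.10, adjusted p = 0.028) and 2.05-fold relative to culture alone (1.03 ± 0.10, adjusted p = 0.00862). Usp18 is best known as a gene induced by interferon and not as a feedback gene of NF-kB. The call relative to B cells was lost in limma on leaving out any array except B-cell replicate 1 (differences 0.85 to 0.93, adjusted p 0.089 to 0.353). That relative to culture alone was lost without either array cultured alone (differences 0.97 and 1.10, adjusted p = 0.122 and 0.061) or without neutrophil replicate 2 (1.02, adjusted p = 0.094). Fitted beside the receptor mean, the differences were 0.75 and 0.82, with adjusted p of 0.844 and 0.871. Their intervals were 0.43 to 1.08 and 0.42 to 1.22, with unadjusted p in limma of 0.0011 and 0.0021. In that fit 0 of all genes passed in either comparison. The fit can hardly tell the receptor mean apart from the neutrophil group, so it cannot decide whether the call on Usp18 depends on that mean.

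The other inhibitors did not pass. Tnip2, a relative of Tnip1, differed by 0.34 ± 0.15 relative to B cells (adjusted p = 0.251). It stood at 8.41 and 7.93 beside B cells, so replicate 2 was the low array. The deubiquitinase gene Cyld, lost in some human myelomas, stood at 8.87 and 8.82 alone, 8.98 and 8.78 beside B cells, and 9.12 and 9.12 beside neutrophils. The neutrophil arrays were the highest, at 0.28 ± 0.10 over culture alone (adjusted p = 0.222). Tnip3 stood at -0.37 ± 0.10 relative to B cells (adjusted p = 0.153), and its arrays, at 5.42 to 5.93, lay below every lower quartile; so dim a signal may be background. Without B-cell replicate 1, 18 of the 51 genes of the 2 lists passed relative to B cells, 17 higher and 1 lower, Usp18, Bcl10, Map3k14 and Cyld among them; in that fit 24.6% of all genes passed, 2605 higher and 2848 lower.

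**Figure D3:**
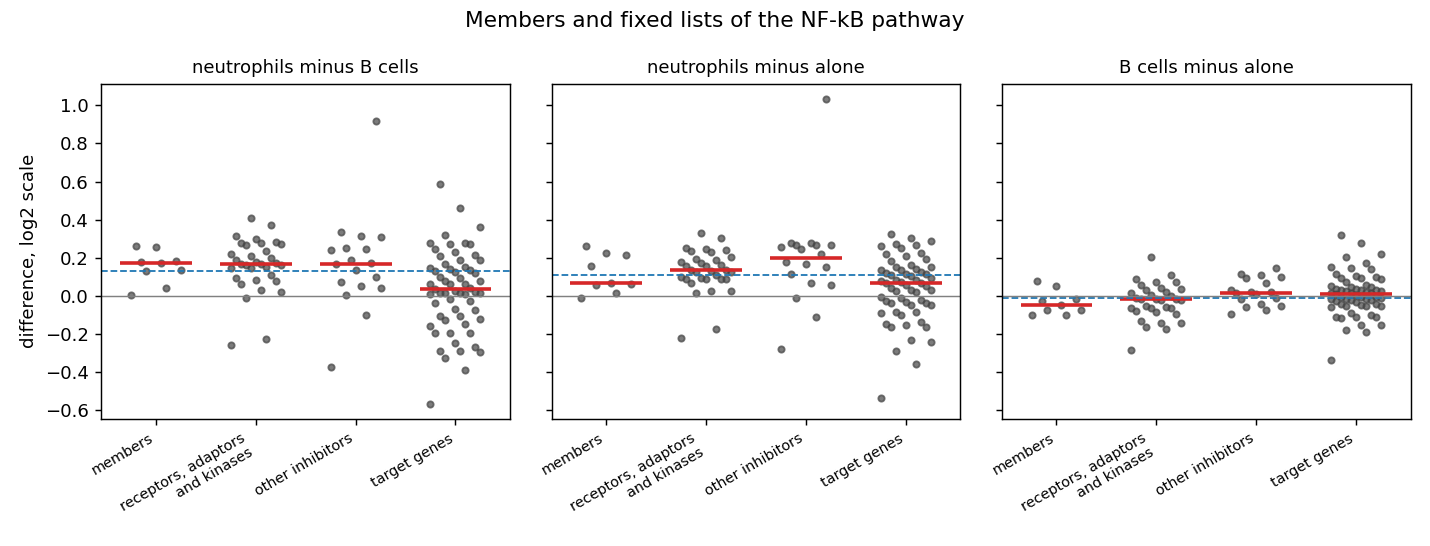
Differences between culture groups (y axis, log2 scale) for the 9 NF-kB genes, 33 receptors, adaptors and kinases, 18 further inhibitors and 61 target genes. Points are genes, red bars are medians and the dashed line is the median of the 11090 brighter genes. The highest point in both neutrophil comparisons is Usp18, and the 61 targets spread to either side of 0.

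Of 65 listed NF-kB target genes 61 were measured, and 0 passed in any comparison. Relative to B cells their median was 0.03, with 7 higher and 5 lower at an unadjusted p under 0.05, and relative to culture alone it was 0.07, with 4 higher and 4 lower. Over all 22180 genes 1797 were higher and 2652 lower at that level relative to B cells, and 1324 and 2599 relative to culture alone. Cd69, an early activation antigen of lymphocytes, stood at 8.87 and 8.86 alone, 8.66 and 8.40 beside B cells, and 9.19 and 9.05 beside neutrophils. Its 3 groups did not overlap, and the difference between neutrophils and B cells was 0.59 ± 0.11 (adjusted p = 0.123). With dimmer genes left out of the fit it passed (adjusted p = 0.0351). Psmb9, a subunit of the immunoproteasome, differed by 0.32 ± 0.10 relative to B cells and 0.30 ± 0.10 relative to culture alone (adjusted p = 0.180 and 0.184). Tnfaip8 differed by 0.36 ± 0.12 and 0.33 ± 0.12 (adjusted p = 0.187 and 0.209). The early response gene Ier2 stood 0.46 ± 0.18 higher than with B cells (adjusted p = 0.225). Its arrays were at 6.94 and 7.16 alone, 7.11 and 6.61 beside B cells, and 7.14 and 7.50 beside neutrophils. B-cell replicate 2 was the low array. Tnf, the cytokine gene, stood 0.29 ± 0.11 and the stress gene Gadd45b 0.27 ± 0.13 above culture alone (adjusted p = 0.235 and 0.322).

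Other targets, several of them inflammatory, had negative differences with neutrophils, none of which passed. Bcl2a1a, a survival gene of the BCL2 family, stood at -0.57 ± 0.15 relative to B cells and -0.54 ± 0.15 relative to culture alone (adjusted p = 0.154 and 0.139). It belongs to a group of near-identical genes, so which copy its probes read is uncertain. Ptgs2, the inducible cyclooxygenase, stood at -0.39 ± 0.14 and -0.36 ± 0.14 (adjusted p = 0.207 and 0.241), and the chemokine gene Ccl5 at -0.33 ± 0.12 and -0.29 ± 0.12 (adjusted p = 0.204 and 0.247). Il1b stood at -0.29 ± 0.14 relative to B cells (adjusted p = 0.264) but at 0.03 relative to culture alone. Its B-cell arrays were at 5.97 and 6.375, so replicate 2 was the high array. Clec4e stood at -0.24 ± 0.10 relative to culture alone (adjusted p = 0.275). Ptgs2, Il1b and Clec4e lay at 5.72 to 6.49 over the arrays, below every array median. Bcl2a1a, at 6.45 to 7.32, lay below the median of the same array in each case. The receptor genes, dim as well, had median differences of -0.30 relative to B cells and -0.37 relative to culture alone. Without B-cell replicate 1, 19 of the 61 targets passed relative to B cells, 10 higher and 9 lower, where 24.6% of all genes passed.

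With B cells relative to culture alone, 0 of the pathway genes and 0 of the targets passed in limma. At an unadjusted p under 0.05 were 0 pathway genes and 3 of the 61 targets, where 3.92% of all genes were. The 3 were Il1b at 0.32 ± 0.14, the activation antigen Cd83 at 0.28 ± 0.10 and Cd69 at -0.34 ± 0.11. The largest pathway differences were -0.28 ± 0.13 for Bcl10, 0.21 ± 0.11 for Btrc, the ubiquitin ligase subunit that recognises marked IkB proteins, and -0.18 ± 0.11 for Birc3, which restrains the alternative route. Each had an adjusted p of 0.9999.

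The kB match was also used to look beyond the lists. Other measured genes with a match in a promoter window numbered 934. Relative to B cells 0 of them passed, with 79 higher and 71 lower at an unadjusted p under 0.05. At that level were 1402 and 2001 of the 16982 measured genes with a window, with or without a match. The 16982 leave out the NF-kB genes described here and include the 934. Relative to culture alone 1 of the 934 rose and 7 fell, beside 15 and 233 of the 16982. The median differences of the 934 were 0.03 and 0.04, beside 0.02 and 0.03 for the 16982.

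Rela had the widest range of group means of the 9 genes, 0.26. Of the 11089 others that reach the median brightness, those with the most similar profile over the 6 arrays were L3mbtl3, Bnip1, Syde1, Ylpm1 and Elof1. Their root mean square distances from Rela, after each gene was centred on its own mean, were 0.009 to 0.019 log2 units. L3mbtl3 stood at 8.76 and 8.72 alone, 8.91 and 8.73 beside B cells, and 9.03 and 9.0002 beside neutrophils. With 6 arrays and so many genes, close profiles of this kind are easily found. The median range of group means was 0.17 for the 9 genes, 0.18 for the brighter genes and 0.19 for all genes.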

How the data were processed

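Total RNA of 6 samples was hybridised to Affymetrix arrays. The deposited values are log2 expression per probe set. The authors used RMA, as the submitters' processing notes record, and the log2 scale was read from the values. The array model, software version and annotation build are not given in the sources used here. Of 41345 probe sets, 23521 were named with 1 gene, 1814 with several and 16010 were unnamed here. The probe set with the highest mean was kept per gene, leaving 22180 genes. Depth does not apply to arrays, and their number limits the precision.

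A model of group means over all 6 arrays was fitted in limma 3.58.1 under R 4.3.3 (3 residual degrees of freedom, prior 5.55), with eBayes, two-sided tests and Benjamini-Hochberg adjustment over all genes, threshold 0.05. The procedure was tested on simulated data. The genes, lists, motif and tests were chosen with earlier results of these data known. The text names list genes that passed, or else up to 4 per direction with the largest differences and no overlap of arrays. Alternatives were a brightness filter, robust and trended eBayes, quantile normalisation, median centring, averaged probe sets, 4-array fits, blocking on replicate number, omission of each array, a receptor-mean covariate and a threshold of 0.1. Promoter sequences are RefSeq's, GRCm38.p6. Plots used matplotlib 3.10.9.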

Additional observations from a re-analysis of the deposited data

How the results depend on the processing

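None of the 9 NF-kB genes passed under any alternative run, in any comparison. Directions of single differences, all short of the threshold, turned as follows, and the cause was not tested. With the receptor mean as a covariate, neutrophils relative to culture alone became -0.0052 for Bcl3, -0.0259 for Nfkb2, -0.35 for Nfkbia, -0.0139 for Tnfaip3 and -0.34 for Tnip1, neutrophils relative to B cells -0.18 for Nfkbia, -0.17 for Relb and -0.12 for Tnip1, and B cells relative to culture alone -0.0043 for Rel. With quantile normalisation Nfkb2 became -0.08 relative to culture alone and -0.0423 relative to B cells, and Nfkbia -0.0719 and -0.0323. With arrays centred on medians Relb became 0.0255 relative to culture alone. Leaving out 1 array, B cells relative to culture alone ran from -0.223 to 0.0765 for Nfkbia, -0.124 to 0.0305 for Nfkbie, -0.0304 to 0.129 for Rel, -0.0081 to 0.169 for Rela, -0.0942 to 0.0614 for Relb and -0.266 to 0.0663 for Tnip1. Neutrophils relative to B cells ran from -0.0166 to 0.283 for Nfkbia and -0.0747 to 0.081 for Relb, and relative to culture alone from -0.073 to 0.0465 for Relb and -0.0079 to 0.0338 for Tnfaip3.

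The 1 pathway gene called relative to B cells, Usp18, became 0 with quantile normalisation, with the 4 arrays alone, with the replicate number as a block (adjusted p = 0.0541) and beside the receptor mean, and 0 to 18 on leaving out 1 array. Relative to culture alone it became 0 with the receptor mean, and 0 to 1 on leaving out 1 array. The 0 targets relative to B cells became 1 among brighter genes and 0 to 19 on leaving out 1 array. Over all genes, the 11 calls relative to B cells became 91 among brighter genes, 33 with trend and robust settings, 1 with quantile normalisation or the 4 arrays alone, 62 with centring, 0 with the receptor mean (777 at an unadjusted p under 0.05), 30 at a threshold of 0.1 and 1 to 5453 on leaving out 1 array. The 331 relative to culture alone became 90 among brighter genes, 22 with quantile normalisation, 555 with centring, 1338 with the 4 arrays alone, 0 with the receptor mean (1254 at an unadjusted p under 0.05), 750 at a threshold of 0.1 and 5 to 1338 on leaving out 1 array. The 0 for B cells relative to culture alone became 1 among brighter genes or with trend and robust settings. Deviations of same-numbered arrays correlated at -0.07, 0.07 and -0.15 across genes between the 3 pairs of groups, so the replicate numbers were not taken as pairs, and the block changed no call on the 9 genes.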
